A study of Mus musculus with 6 samples.

Results

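MHC class II genes and their transactivator Ciita were followed in early T-cell progenitors that had been re-cultured for 4 days. The set holds 6 of the 28048 genes in the count matrices, chosen by symbol: H2-Aa, H2-Ab1, H2-Eb1, Cd74, Ciita and H2-DMa. Single-cell combinatorial indexing RNA sequencing (sci-RNA-seq3) adds several rounds of barcodes to fixed material, here cells fixed in paraformaldehyde. It counted unique molecular identifiers (UMIs) in 6 libraries, 1 per condition. The starts were DN1 cells, which had surface CD44 but no CD25, DN2a cells, which had both but no Bcl11b reporter, and DN2b cells, which had all 3. They came from bone marrow of WT or ΔTE mice grown beforehand on OP9-DL1, a stromal line that displays the Notch ligand Delta-like 1. WT mice were Bcl11b YFP/YFP and ΔTE mice Bcl11b YFPΔEnh/YFPΔEnh, so both genotypes carried a YFP reporter in Bcl11b, and the ΔTE mice lacked the distal enhancer that times Bcl11b activation. Mice of both sexes, 2 to 4 months old and on a C57BL/6 background, were pooled, 6 to 8 per genotype. The cytokines were Flt3-L, IL-7, IL-2, SCF and IL-15. The sort before re-culture removed cells with lineage markers, CD11c, CD11b and B220 included, and no sort followed the re-culture, so descendants and remaining stroma were sequenced together. With 1 library per condition no test was run, and every interval below is a 95% interval of counting error only. The 3 reverse-transcription wells of each library are portions of 1 culture and were used only to show technical spread.

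Cells were kept with 200 genes or more, no more than 2000 UMIs and a mitochondrial share of 30% or less. They numbered 10925, 19489 and 4968 for the WT DN1, DN2a and DN2b starts and 10294, 11594 and 3401 for ΔTE. They held 5994462, 9048728 and 2732285 UMIs for WT and 5898630, 6320441 and 1717136 for ΔTE, with median depths of 386 to 485 UMIs per cell. Of the 60671 kept barcodes, 0 were shared between libraries. Levels are given as CPM, the UMIs of a gene per 1000000 UMIs of a library's kept cells. The labels were checked on genes that follow the T-cell program. Bcl11b was at 235, 534 and 856 CPM in the WT DN1, DN2a and DN2b starts and at 89.3, 256 and 539 CPM in ΔTE, and Cd3g, a T-cell receptor signalling chain, was at 78.7, 309 and 529 CPM in WT and at 25.8, 134 and 439 CPM in ΔTE. Both were higher from start to start and lower in ΔTE at each start, so the 6 libraries followed the order of their labels. Stroma genes were present in every library and most in the DN2a starts: the summed stroma list was at 466, 2123 and 747 CPM in WT and at 264, 1311 and 375 CPM in ΔTE.

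MHC class II molecules display peptides from the endocytic route to CD4 T cells and are produced mainly by dendritic cells, B cells, macrophages and thymic epithelium. H2-Aa encodes the alpha chain of I-A, H2-Ab1 its beta chain and H2-Eb1 the beta chain of I-E. Cd74, the invariant chain, escorts newly made class II molecules and blocks their groove, and H2-DMa is a subunit of the H2-DM editor that exchanges the invariant chain remnant for peptide. Ciita does not bind DNA itself: it is recruited by the RFX, NF-Y and CREB complex assembled on the X and Y boxes of class II promoters, and its level largely sets class II transcription. Developing mouse T cells do not normally display class II.

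The 3 H2 genes described by sequence lie in the class II region of chromosome 17, whose 9 genes present here span 249073 bases between 34092340 and 34341412 on GRCm38. In that build H2-Aa occupies chr17:34282744-34287823 on the minus strand, H2-Ab1 chr17:34257689-34269419, H2-Eb1 chr17:34305867-34316674 and H2-DMa chr17:34119541-34139101, all 3 on the plus strand. Ciita lies on the plus strand at chr16:10480059-10528418, and Cd74 lies outside the class II region. Promoter stretches of 120 bases ending just before a RefSeq start (GRCm38.p6) are shown for H2-Aa, H2-Eb1 and H2-DMa. H2-Ab1, Cd74 and Ciita were not examined. Capitals mark CTNGCAAC, letters of the X box, and CTGATTGG, letters of the Y box with its reversed CCAAT.
H2-Aa: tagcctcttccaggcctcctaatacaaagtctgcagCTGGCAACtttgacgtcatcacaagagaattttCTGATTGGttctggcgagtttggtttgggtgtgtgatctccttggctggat
H2-Eb1: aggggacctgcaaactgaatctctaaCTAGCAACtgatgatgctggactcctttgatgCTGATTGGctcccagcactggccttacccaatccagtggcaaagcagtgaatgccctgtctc
H2-DMa: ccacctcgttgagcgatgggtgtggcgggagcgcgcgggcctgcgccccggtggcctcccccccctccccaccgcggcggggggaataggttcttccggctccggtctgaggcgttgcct
These are chr17:34287824-34287943 (minus strand), chr17:34305747-34305866 and chr17:34122712-34122831 (both plus strand), the last before the start of a protein-coding H2-DMa transcript. In H2-Aa the X letters began 84 and the Y letters 51 bases before the start, with 25 bases between them. In H2-Eb1 they began 94 and 62 bases before the start, with 24 bases between them. Neither set of letters occurred in the 2 H2-DMa windows, of which the second is not shown. Both windows lie inside the annotated H2-DMa gene, which overlaps Brd2 on the opposite strand. No other H2-DMa start was examined, so whether another promoter of the gene holds the letters is not known. Among all 32851 promoter windows of 300 bases, 3.42% held the X letters and 4.10% the Y letters on either strand, and 8 windows (0.0244%) held the X letters followed on the same strand by the Y letters at a distance of 10 to 40 bases. Those 8 windows belonged to 7 genes, 2 of them H2-Aa and H2-Eb1. Of the other listed class II region genes, 5 of 7 had a window and 0 held the pair, and of 9 class I genes 7 had a window and 0 held it. The letters describe the windows only, and no binding was measured.

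Class II transcripts were most abundant in cultures started from DN1 cells of either genotype and nearly gone in cultures started from DN2b cells. H2-Aa was at 22.4, 5.30 and 2.56 CPM in the WT DN1, DN2a and DN2b starts (134, 48 and 7 UMIs) and at 35.4, 7.59 and 1.75 CPM in ΔTE (209, 48 and 3 UMIs). Its partner H2-Ab1 was at 23.4, 4.20 and 1.10 CPM in WT (140, 38 and 3 UMIs) and at 25.9, 4.43 and 0.582 CPM in ΔTE (153, 28 and 1 UMIs). H2-Eb1 was at 15.0, 2.21 and 1.10 CPM in WT (90, 20 and 3 UMIs) and at 23.1 and 5.06 CPM in the ΔTE DN1 and DN2a starts (136 and 32 UMIs), with 0 UMIs in ΔTE DN2b. All 3 chains therefore had the same order of starts in both genotypes, and in each the DN1 and DN2a intervals were apart, while the DN2b counts were too few to order the genotypes.

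The accessory genes and the transactivator were also highest in the DN1 starts. Cd74 was at 5.51 and 0.884 CPM in the WT DN1 and DN2a starts (33 and 8 UMIs) and at 7.80 and 2.22 CPM in ΔTE (46 and 14 UMIs), and 0 UMIs were found in either DN2b library, which allows up to 1.10 CPM in WT and 1.75 CPM in ΔTE (3 counts per library). The WT DN2a level of Cd74 lies under that limit, so its order in the WT DN2a and DN2b starts is not established. Ciita was at 9.01, 2.21 and 0.732 CPM in WT (54, 20 and 2 UMIs) and at 8.31, 4.27 and 0.582 CPM in ΔTE (49, 27 and 1 UMIs). H2-DMa was at 26.9, 19.0 and 15.4 CPM in WT (161, 172 and 42 UMIs) and at 34.1, 20.1 and 13.4 CPM in ΔTE (201, 127 and 23 UMIs). H2-DMa thus kept over 10 CPM in every library, where the other 5 genes came to 5.49 CPM together in WT DN2b and 2.91 CPM in ΔTE DN2b. Such sums over a library cannot tell fewer expressing cells from less RNA per expressing cell.

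**Figure D1:**
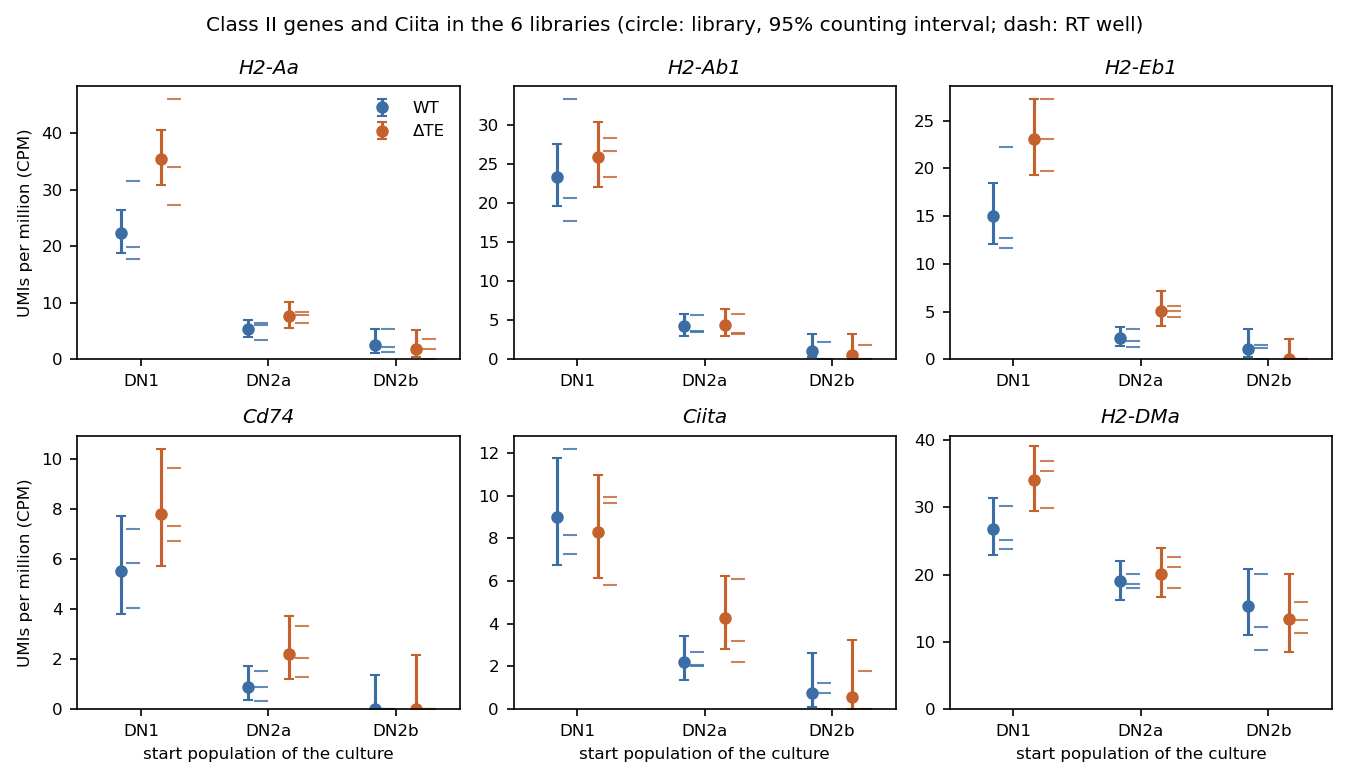
Level of each of the 6 genes (CPM of kept cells, y axis, scaled per panel) in the WT (blue) and ΔTE (orange) libraries of the DN1, DN2a and DN2b starts (x axis), with circles for libraries, exact Poisson 95% intervals as bars and short dashes for the 3 reverse-transcription wells. H2-Aa reached 22.4 and 35.4 CPM in the DN1 starts and 2.56 CPM or less in the DN2b starts, whereas H2-DMa ranged from 13.4 to 34.1 CPM.

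The wells gave the same picture. Summed over the 5 genes other than H2-DMa, the 3 wells were at 61.3, 69.9 and 101 CPM for WT DN1, at 10.7, 16.1 and 17.9 CPM for WT DN2a and at 3.65, 5.29 and 6.71 CPM for WT DN2b. For ΔTE they were at 83.0, 107 and 115 CPM for DN1, at 18.6, 22.7 and 26.8 CPM for DN2a and at 0, 3.77 and 5.31 CPM for DN2b. No DN1 well overlapped a DN2a well, and no DN2a well overlapped a DN2b well, within either genotype. The WT and ΔTE wells of the DN1 start did overlap, and those of the DN2a start did not.

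From DN1 to DN2a starts, 5 of the 6 genes differed by over 2-fold in WT and 4 of 6 in ΔTE, all higher in DN1, against 1.78% of 12165 genes with at least 20 UMIs in WT and 2.1% of 11680 in ΔTE. Cd74 reached 20 UMIs only through the DN1 library where it is high, which favoured its call. None of the 6 was over 2-fold lower in DN1, where 10.8% of genes were in WT and 7.35% in ΔTE. In WT the log2 ratios of DN1 to DN2a were 2.08 (1.59 to 2.58) for H2-Aa, 2.48 (1.95 to 3.03) for H2-Ab1, 2.76 (2.05 to 3.54) for H2-Eb1, 2.64 (1.5 to 3.96) for Cd74 and 2.03 (1.26 to 2.85) for Ciita. The same ratios in ΔTE were 2.22 (1.76 to 2.71), 2.55 (1.96 to 3.19), 2.19 (1.62 to 2.79), 1.82 (0.93 to 2.79) and 0.96 (0.25 to 1.69). Ciita was the gene short of 2-fold in ΔTE, apart from H2-DMa, and its WT and ΔTE intervals overlapped. Its ΔTE ratio ran from 0.70 to 1.64 with each well left out in turn, so 1 well can take it past 2-fold. H2-DMa had the smallest such ratios, 0.50 (0.18 to 0.82) for WT and 0.76 (0.43 to 1.09) for ΔTE. The median over the 6 genes was 2.28 in WT and 2.0 in ΔTE, beside -0.16 and -0.01 over all genes tested. Together the 5 genes other than H2-DMa were 5.08-fold higher in the DN1 start in WT (log2 2.34, 2.06 to 2.63) and 4.26-fold higher in ΔTE (log2 2.09, 1.83 to 2.36).

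From DN2a to DN2b starts the counts were small. Of the 5 genes with at least 20 UMIs over the pair of libraries, all but H2-DMa reached them through the DN2a library, so their count is given as a description only: 4 were over 2-fold higher in DN2a in each genotype, against 9.59% of genes in WT and 8.58% in ΔTE, and 0 were over 2-fold lower, against 0.776% and 1.63%. In WT the intervals of H2-Aa (1.05, -0.10 to 2.44), H2-Eb1 (1.01, -0.74 to 3.40) and Ciita (1.59, -0.45 to 4.74) included 0, and leaving out 1 well took H2-Aa to 0.76 and H2-Eb1 to 0.54. The 5 genes other than H2-DMa together had log2 ratios of 1.43 (0.66 to 2.31) in WT and 3.02 (1.76 to 4.66) in ΔTE, resting on 15 and 5 UMIs in the DN2b libraries. In ΔTE, H2-Eb1 was at least 2.90-fold higher in DN2a, with 3 counts taken for the library at 0. H2-DMa had ratios of 0.31 (-0.19 to 0.83) for WT and 0.59 (-0.06 to 1.29) for ΔTE. Both comparisons within a genotype use its DN2a library, so they are not independent of each other.

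Between genotypes, differences in the DN1 start were within 2-fold for each of the 6 genes. In the DN1 start 0 of the 6 genes were over 2-fold higher in ΔTE (0.83% of 11452 genes were) and 0 over 2-fold lower (1.7%), and 5 of 6 had a higher level in ΔTE. Log2 ratios of ΔTE to WT were 0.66 (0.34 to 0.99) for H2-Aa, 0.62 (0.22 to 1.02) for H2-Eb1, 0.34 (0.04 to 0.65) for H2-DMa, 0.50 (-0.17 to 1.19) for Cd74 and 0.15 (-0.19 to 0.49) for H2-Ab1. For Ciita it was -0.12 (-0.71 to 0.47). Only the first 3 of these exceeded counting error, and with 1 library per genotype a difference between cultures cannot be told apart from one between genotypes.

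In the DN2a start 2 of 6 genes, H2-Eb1 and Cd74, were over 2-fold higher in ΔTE, against 1.1% of 12214 genes, and 0 were over 2-fold lower, against 4%. Their log2 ratios were 1.20 (0.35 to 2.08) and 1.33 (-0.03 to 2.79), and leaving out 1 WT well took each to 0.94, below 2-fold. The WT DN2a library stood apart from the others, with the lowest median depth (386 UMIs) and a median mitochondrial share of 13.3% against 20.9% to 23.9%. For Ciita the ratio was 0.95 (0.06 to 1.86), and 0.27 without 1 ΔTE well, for H2-Aa 0.52, and for H2-Ab1 and H2-DMa 0.08 each. In the DN2b start only H2-DMa reached 20 UMIs, with a log2 ratio of -0.20 (-1.0 to 0.57), and there 1.74% of genes were over 2-fold higher and 3.64% over 2-fold lower in ΔTE. The 6 genes together had log2 ratios of ΔTE to WT of 0.40 (0.24 to 0.55), 0.37 (0.13 to 0.61) and -0.36 (-1.06 to 0.32) in the DN1, DN2a and DN2b starts. Scaling by trimmed means (TMM) in place of total UMIs shifted all genes by 0.14 in the DN2a comparison of genotypes, by 0.17 in the WT DN1 to DN2a comparison and by -0.17 in the WT DN2a to DN2b comparison, and turned none of the summed ratios. With it, H2-Aa and H2-Eb1 fell below 2-fold for DN2a to DN2b in WT (0.88 and 0.84), and Ciita passed 2-fold for ΔTE to WT in DN2a (1.09).

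**Figure D2:**
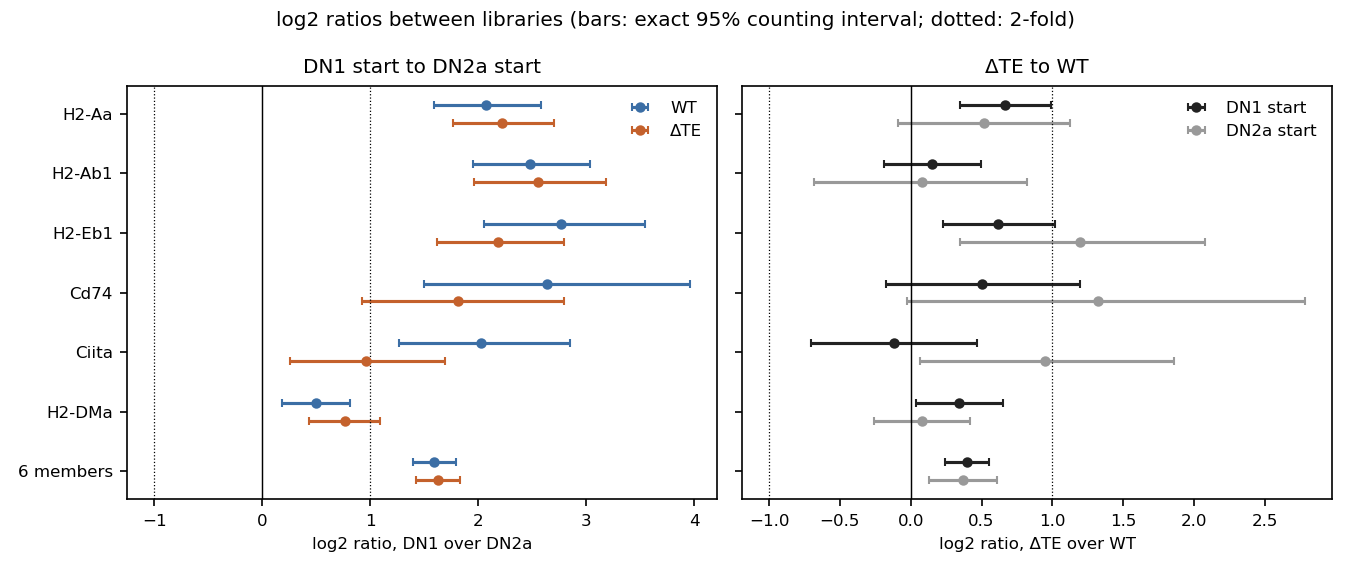
Log2 ratios of CPM (x axes) for each of the 6 genes and for their sum, from DN1 to DN2a in WT and ΔTE (left) and from ΔTE to WT in the DN1 and DN2a starts (right), with conditional binomial 95% intervals as bars, a solid line at 0 and dotted lines at 2-fold. H2-Aa, H2-Ab1, H2-Eb1 and Cd74 lie at 1.82 or above for DN1 to DN2a in both genotypes and H2-DMa at 0.50 and 0.76, while on the right 0 genes in the DN1 start pass 2-fold.

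Few cells carried the transcripts. At least 1 UMI of the 5 genes other than H2-DMa was found in 1.63% (1.40 to 1.88) of WT DN1 cells, 0.446% (0.358 to 0.550) of WT DN2a cells and 0.221% (0.111 to 0.396) of WT DN2b cells. In ΔTE the shares were 2.18% (1.90 to 2.48), 0.699% (0.555 to 0.868) and 0.147% (0.0478 to 0.343). After each cell was thinned to 300 UMIs they were 1.22%, 0.298% and 0.181% in WT and 1.66%, 0.504% and 0.170% in ΔTE. As a measure of free RNA, 0.293% (0.127 to 0.577) of 2728 cells with 2 or more different T-cell markers and 0.803% (0.525 to 1.17) of 3238 cells with 2 or more stroma markers had such a UMI, at a median of 548.5 UMIs in each set. The shares in both DN2b starts lay below each of these, with intervals that overlapped the T-cell one, and were not told apart from it. The DN2a shares lay between the T-cell and the stroma values, with intervals that overlapped both, and were not told apart from either. The DN1 shares lay above both values. The reference values were pooled over starts. Within the DN1 libraries these reference cells were few: 5 of 256 stroma-list cells in WT and 2 of 176 in ΔTE had such a UMI (1.95%, 0.637 to 4.50, and 1.14%, 0.138 to 4.04), intervals that hold the share of the whole library.

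Barcodes that had failed the gene minimum carried the same transcripts. In barcodes with under 200 genes the 6 genes were at 160, 60.2 and 62.4 CPM in the WT DN1, DN2a and DN2b libraries and at 193, 67.2 and 34.5 CPM in ΔTE, against 102, 33.8 and 20.9 CPM and 135, 43.7 and 16.3 CPM in kept cells. Class II RNA outside kept cells was thus present in every library, at its highest in the DN1 starts, and its part in the levels of the kept cells was not tested.

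A more specific measure was the share of cells with UMIs of at least 2 different genes of the 6. Such cells numbered 87 of 10925 in WT DN1 (0.796%, 0.638 to 0.981), 25 of 19489 in WT DN2a (0.128%, 0.0830 to 0.189) and 1 of 4968 in WT DN2b. In ΔTE they numbered 113 of 10294 in DN1 (1.10%, 0.906 to 1.32), 29 of 11594 in DN2a (0.250%, 0.168 to 0.359) and 0 of 3401 in DN2b, which allows a share of up to 0.0882%. The DN1 and DN2a intervals were apart in each genotype, and the WT and ΔTE intervals overlapped in each start. By well the counts were 34, 28 and 25 cells for WT DN1 and 35, 40 and 38 for ΔTE DN1, so no single well supplied them. Stroma-list cells made up 1 of the 87 in WT DN1, 4 of the 25 in WT DN2a and 1 of the 113 in ΔTE DN1. Thinned to 300 UMIs, the shares were 0.538% and 0.0542% for WT DN1 and DN2a and 0.722% and 0.158% for ΔTE.

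Over all libraries 59447 cells had none of the 6 genes, 969 had 1, and 134, 80, 27, 11 and 3 had 2, 3, 4, 5 and 6 different ones. The 255 cells with 2 or more had a median of 467 UMIs against 433 in cells with none, so depth differed little. They carried up to 24 UMIs of the 6 genes. Of the 969 cells with a single one, 638 had only H2-DMa. Doublets were limited only by the 2000-UMI ceiling.

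The 5 genes other than H2-DMa were found in the same cells far more often than independent scatter would give. H2-Aa and H2-Ab1, the chains of one dimer, were found together in 119 cells where 2.04 were expected within libraries and depth classes, a ratio of 58.2 (48.3 to 69.7). Ciita was found with H2-Aa in 43 cells (ratio 43.9, 31.8 to 59.2), and with Cd74 in 18 cells (ratio 55.8, 33.1 to 88.2). Over the 10 pairs that leave out H2-DMa the ratios ran from 43.9 to 64.1, the highest for H2-Eb1 with Cd74, and the summed ratio was 56.1 (51.6 to 60.9). Over the 5 pairs with H2-DMa the ratios ran from 7.66 to 8.96, summed 8.32 (6.90 to 9.94), so the ranges did not overlap. By library the summed ratio of the 10 pairs varied more, at 58.5 and 155 in WT DN1 and DN2a and 43.7 and 108 in ΔTE. That of the 5 pairs was 5.86 and 8.56 in WT DN1 and DN2a and 7.71 and 17.3 in ΔTE. The count expected is small for every pair, and cells of 1 library share their source.

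**Figure D3:**
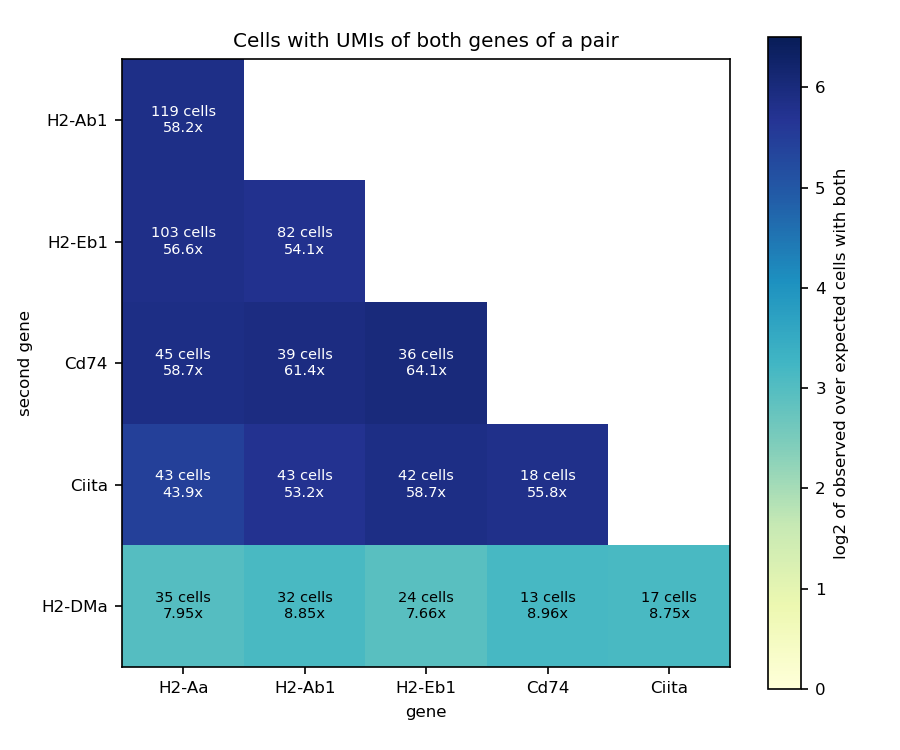
Grid of the 15 pairs of the 6 genes, with the first gene on the x axis and the second on the y axis, where each square gives the number of cells with both genes and the ratio of that number to the number expected, and its colour the log2 of the ratio. The 10 pairs without H2-DMa lie between 43.9 and 64.1, and the bottom row, the 5 pairs with H2-DMa, between 7.66 and 8.96.

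The same split is seen from each gene's cells. Another of the 6 genes was found in 61.5% of the 299 cells with H2-Aa, 67.5% of the 240 with H2-Ab1, 69.4% of the 206 with H2-Eb1, 74.2% of the 89 with Cd74 and 59.1% of the 127 with Ciita. For H2-DMa it was 8.46% of 697 cells. H2-DMa was still enriched beside the others: in the 586 cells with any of the other 5 it was at 208 CPM (161 to 263) and in the remaining 60085 cells at 20.97 CPM (19.4 to 22.6). Cells without the other 5 held most of its UMIs, 658 against 68. In the DN2b starts, H2-DMa was at 15.0 and 13.4 CPM in cells without the others, near its level in the whole libraries.

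Overlapping annotation bears on these counts. The H2-DMa gene overlaps Brd2, an abundant transcriptional co-regulator on the opposite strand, and Ciita overlaps Dexi. Whether reads were counted by strand is not given in the sources used here, so shared reads cannot be told apart. Brd2 was at 142, 205 and 193 CPM in WT and at 155, 154 and 192 CPM in ΔTE, an order of starts that H2-DMa did not have. Cells with both numbered 68, a ratio to expectation of 1.11 (0.860 to 1.40), and for Ciita with Dexi 3 cells gave 1.86 (0.383 to 5.43). These values cannot decide whether reads were shared, since a read given to the wrong gene need not leave UMIs of both.

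Other class II region genes were at a higher level in the same cells, the H2-DM beta chains more so than the H2-DO chains. The list held 7 genes, 5 of them in the files. H2-DMb1 and H2-DMb2, the beta chains that pair with H2-DMa, had 22 and 21 UMIs in the 255 cells, log2 ratios to cells with none of the 6 genes of 6.01 (5.25 to 6.71) and 6.31 (5.52 to 7.05). H2-Oa and H2-Ob, the chains of the H2-DO inhibitor of H2-DM, had 9 and 6 UMIs, with log2 ratios of 2.61 (1.47 to 3.55) and 3.04 (1.57 to 4.20). H2-Eb2 had 1 UMI. Of the 9630 genes with at least 1 UMI expected in the 255 cells, 9.42% were over 2-fold higher in them and 22.7% over 2-fold lower, and H2-Oa was the only gene of this list among them. The 255 cells held 20.8% of all H2-DMb1 UMIs and 24.7% of those of H2-DMb2, 2.65% of those of H2-Oa, 3.57% of those of H2-Ob and 9.37% of those of H2-DMa, although H2-DMa helped to define them.

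By library, H2-DMb1 was at 5.67, 1.77 and 2.56 CPM in WT and at 5.93, 1.90 and 1.16 CPM in ΔTE. H2-Oa was at 9.18, 11.8 and 13.5 CPM in WT and at 7.46, 10.1 and 18.6 CPM in ΔTE. H2-DMb1 was therefore highest in the DN1 starts and H2-Oa lowest there. In WT 3 of the 4 tested genes of this list were over 2-fold higher in DN1 than in DN2a, and in ΔTE 2 of 4, against 1.78% and 2.1% of all genes. H2-DMb1 and H2-DMb2 reached 20 UMIs only through the DN1 libraries, which favoured their calls.

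Genes that load class II or turn it over were also raised in the 255 cells. Ctss, the cathepsin that trims the invariant chain, had 61 UMIs and a log2 ratio of 5.42 (5.00 to 5.82), and Lgmn, an endosomal protease, had 21 and a ratio of 4.80 (4.07 to 5.45). March1, a ubiquitin ligase that removes class II from the surface, had 70 UMIs and a ratio of 3.30 (2.94 to 3.65), and the tetraspanin Cd82 had 39 and a ratio of 1.61 (1.12 to 2.07). Ctsl had 1 UMI. Of the 4 genes of this list with at least 1 expected UMI, 3 were over 2-fold higher and 1, Ctsl, lower, against 9.42% and 22.7% of all genes. The list was at 1361 CPM in the 255 cells against 175 CPM in cells with none. Ctss and March1 were high in the DN1 libraries too, Ctss at 23.9, 6.85 and 11.3 CPM in WT and 22.5, 6.17 and 11.6 CPM in ΔTE, and March1 at 88.9, 50.7 and 10.2 CPM and 87.5, 25.5 and 5.82 CPM. Ctsl and Cd82 were not, Ctsl at 11.5, 33.0 and 16.5 CPM in WT and 9.83, 19.6 and 10.5 CPM in ΔTE, and Cd82 at 81.6, 98.4 and 120 CPM and 79.8, 74.0 and 142 CPM. Of the 5 tested from DN1 to DN2a, 1 was over 2-fold higher and 1 lower in WT, and 2 higher and 0 lower in ΔTE. Over all genes the shares were 1.78% higher and 10.8% lower in WT, and 2.1% and 7.35% in ΔTE.

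The summed level of the factors that bind class II promoters did not differ in this way. RFX, NF-Y and CREB genes (Rfx5, Rfxank, Rfxap, Nfya, Nfyb, Nfyc and Creb1) came to 454 CPM in the 255 cells and 451 CPM in cells with none. Of the 7, 1 was over 2-fold higher (Rfxap, log2 ratio 2.0, 0.68 to 3.06, on 7 UMIs) and 0 lower, against 9.42% and 22.7% of all genes. The median log2 ratio was 0.04. Between starts 0 of 7 were over 2-fold apart in either direction in either genotype, against 1.78% to 9.59% of all genes higher and 0.776% to 10.8% lower. For a list of 7 genes, counts of 0 or 1 are near these shares and do not set the list apart. Their summed level ran only from 432 to 476 CPM over the 6 libraries, while Ciita ran from 0.582 to 9.01 CPM.

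Among regulators upstream of Ciita, pooled over libraries, 4 of the 8 with an expected UMI were over 2-fold higher in the 255 cells and 0 lower. Over all genes the shares were 9.42% and 22.7%. Spi1, the myeloid and lymphoid factor PU.1, had 63 UMIs and a log2 ratio of 3.50 (3.11 to 3.87). Irf8, a factor of dendritic cells and monocytes, had 38 and a ratio of 4.50 (3.98 to 4.98). Jak2 and Ifngr2, of interferon-gamma signalling, had ratios of 1.91 (1.44 to 2.35) and 2.04 (1.08 to 2.85), while Ifngr1, Irf1 and Jak1 lay within 2-fold at 0.44, -0.62 and -0.48. Spi1 also had the order of starts of the class II genes, at 72.2, 32.5 and 15.4 CPM in WT and at 67.6, 24.7 and 9.32 CPM in ΔTE. Irf8 was at 17.5, 7.29 and 5.12 CPM in WT and at 26.3, 10.1 and 12.2 CPM in ΔTE. Within the DN1 starts the regulator list was at 2007 CPM in these cells against 743 CPM in cells with none in WT. In ΔTE DN1 it was at 2014 against 788 CPM. Within the DN2a starts it was not told apart: 1121 CPM (613 to 1880) against 902 CPM in WT, and 898 CPM (503 to 1481) against 911 CPM in ΔTE.

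Costimulatory genes were at a higher level in the class II cells, and class I genes were not over 2-fold apart. Cd86 had 15 UMIs in the 255 cells (log2 ratio 6.16, 5.21 to 7.03), Cd80 had 13 (3.94, 3.00 to 4.75) and Cd274, the PD-L1 gene, 17 (3.35, 2.56 to 4.05), while Cd40 had 0. The costimulation list was at 397 CPM there and at 22.2 CPM in cells with none, although most of its UMIs lay in cells with none (688 against 56). The 9 class I genes, B2m, H2-K1 and H2-D1 included, were at 3203 and 2763 CPM. Of these 9, 0 were over 2-fold apart, against 9.42% of all genes higher and 22.7% lower.

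**Figure D4:**
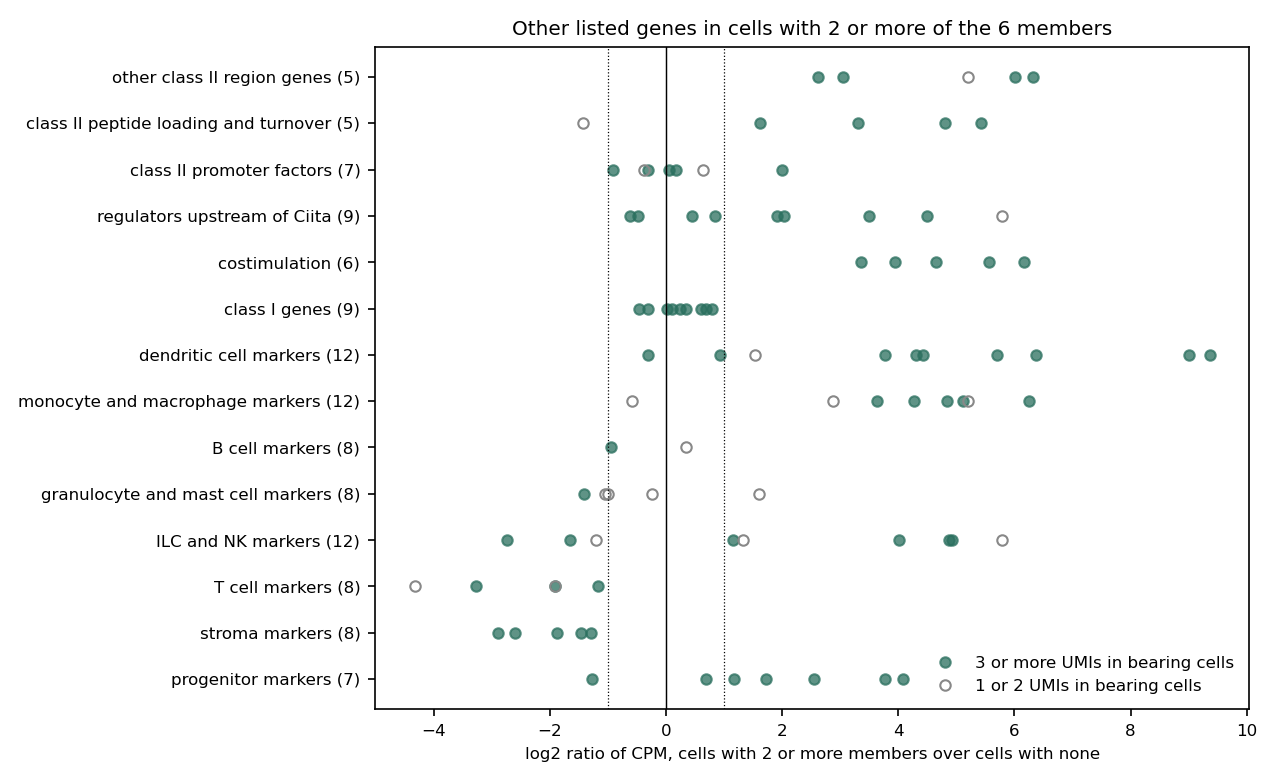
Log2 ratio of CPM (x axis) in the 255 cells with 2 or more of the 6 genes to CPM in the 59447 cells with none, with 1 point per gene in rows by list (number of listed genes in the files in brackets), filled for genes with 3 or more UMIs in the 255 cells and open for 1 or 2, and genes at 0 there not drawn. H2-DMb1 and H2-DMb2 lie above 6, and all 9 class I genes lie between the dotted lines at 2-fold.

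Markers of the cells that usually express class II were examined next. Of 12 dendritic cell markers 10 were detected, and Cd209a and Siglech had 0 UMIs in the 255 cells. Itgax (CD11c) had 31 UMIs with a log2 ratio of 4.43 (3.85 to 4.96), Zbtb46, a factor of classical dendritic cells, 11 with 6.38 (5.23 to 7.42), and Batf3, required for the cross-presenting subset, 10 with 5.71 (4.55 to 6.73). Of the 12 UMIs of Xcr1 in all kept cells 7 were in the 255 cells, and of the 4 of Clec9a 3 were. Cd24a, the most abundant gene of the list in the whole libraries, was not raised (-0.31, -0.89 to 0.21), and Ccr7, on 5 UMIs, was not over 2-fold higher (0.93, -0.70 to 2.16). Of the 4 genes with an expected UMI, 2 were over 2-fold higher and 0 lower, against 9.42% and 22.7% of all genes. Summed, the list was at 957 CPM in the 255 cells and 305 CPM in cells with none.

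Monocyte and macrophage markers were raised as well, on 8 of 12 genes detected. Csf1r, the M-CSF receptor, was the most abundant with 35 UMIs and a log2 ratio of 4.84 (4.28 to 5.35), followed by Lyz2 with 34 and 3.64 (3.09 to 4.14), and Adgre1 (F4/80) had 27 and 6.25 (5.56 to 6.90). Fcgr1, Cd14 and Ly6c2 had 0 UMIs. Summed over libraries, the list was at 886 CPM in the 255 cells and 54.9 CPM in cells with none. It was at 970 against 110 CPM within WT DN1 and at 1045 against 71.1 CPM within ΔTE DN1. For B-cell markers the counts were too few to tell. Cd79a, Ms4a1, Pax5, Vpreb1 and Blnk had 0 UMIs, but each had at most 23 in all kept cells and under 1 expected here. The list, mostly Ebf1, was at 49.6 CPM (19.9 to 102, on 7 UMIs) against 81.2 CPM, which that interval includes.

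T-cell and stroma genes were low in these cells, and ILC and NK genes were mixed. Pooled, all 7 tested T-cell markers were over 2-fold lower (median log2 ratio -3.28), among them Cd3g at -3.28 (-5.56 to -1.73). All 7 tested stroma markers were too (median -2.60), against 22.7% of all genes. Within WT DN1 the T-cell list was at 110 CPM against 333 CPM in cells with none, and within ΔTE DN1 at 121 against 278 CPM. The stroma list was at 110 against 471 CPM in WT DN1 and at 75.7 against 270 CPM in ΔTE DN1. In WT DN2a the stroma list was not low, at 2081 CPM (1359 to 3049) against 2135 CPM. In ΔTE DN2a it had 0 UMIs in the 29 cells, against 1319 CPM. Of 5 ILC and NK genes with an expected UMI, 2 were over 2-fold higher (Id2 and, on 4 UMIs, Il18r1 at 1.15, -0.73 to 2.52) and 3 lower, against 9.42% and 22.7% of all genes. Id2, which restrains E proteins in ILC, NK and dendritic cells, had 111 UMIs and a log2 ratio of 4.02 (3.73 to 4.30), and Klrd1, with under 1 UMI expected, had 21 and 4.87 (4.14 to 5.53), while Zbtb16, a factor of ILC precursors, was lower at -2.73 (-4.05 to -1.69), as were Rora at -1.66 (-3.94 to -0.11) and Icos at -1.20 (-6.51 to 1.29, on 1 UMI), and Il2rb had 0 UMIs. Among progenitor genes, again pooled, Flt3 (3.77, 2.79 to 4.61), Mef2c (2.55, 2.03 to 3.02) and Bcl11a (1.73, 1.38 to 2.06) were higher and Kit lower (-1.27, -2.18 to -0.50). The progenitor list was at 1247 against 571 CPM pooled. Its levels lay closer within the DN1 starts, at 1434 against 866 CPM in WT and 1181 against 772 CPM in ΔTE.

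Most of the 255 cells could not be placed by these lists at this depth. Counting a list as present when a cell had UMIs of 2 or more different genes of it, 19 cells (7.45%) had the dendritic list, against 0.377% of cells with none of the 6 genes, and 20 (7.84%) had the monocyte and macrophage list, against 0.146%. The dendritic list holds Cd24a and Ccr7, which were not over 2-fold higher in the 255 cells, and shares Flt3 with the progenitor list, so a cell can have it on genes that T-cell progenitors also express. How many did so was not counted. The progenitor list was present in 29 (11.4% against 3.27%), the ILC and NK list in 12, the stroma list in 6, the T-cell list in 3 and the B-cell and granulocyte lists in 0. In 181 cells (71.0%) no list was present.

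Read the other way and pooled over libraries, the level of class II transcripts was highest in the few cells with the monocyte or dendritic list. Most of the UMIs were in cells with no list. The 5 genes other than H2-DMa were at 1472 CPM (1225 to 1753) in the 129 cells with the monocyte and macrophage list and at 725 CPM (611 to 856) in the 257 cells with the dendritic list. In the 2042 cells with the progenitor list they were at 111 CPM (95.6 to 129), in the 1186 with the ILC and NK list at 73.9 CPM (55.8 to 96.0) and in the 50966 with no list at 35.7 CPM (33.4 to 38.1), on 897 UMIs against 125 and 141 in the monocyte-list and dendritic-list cells. They were at 16.9 CPM (11.9 to 23.3) in the 3238 cells with the stroma list, 7.80 CPM (4.26 to 13.1) in the 2728 with the T-cell list and 2.38 CPM (0.0603 to 13.3) in the 564 with the granulocyte and mast cell list. The pooled order of the first 2 lists did not hold within each library, since most monocyte-list cells were from DN1 starts. In WT DN1 the 5 genes were at 1312 CPM (991 to 1704) in monocyte-list and 793 CPM (567 to 1080) in dendritic-list cells, and in ΔTE DN1 at 1619 CPM (1236 to 2084) and 1880 CPM (1523 to 2296). Dendritic-list cells of the DN2a starts were at 132 CPM (43.0 to 309) in WT and had 0 UMIs in ΔTE. Cells with the ILC and NK list were at 372 CPM (220 to 588) in WT DN1 and 96.1 CPM in WT DN2a. The pooled levels of the lists thus depend on the mix of starts, and their order is not one within libraries. H2-DMa ranged less, from 9.15 CPM in stroma-list cells and 15.6 CPM in T-list cells to 224 CPM (135 to 349) in monocyte-list cells.

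**Figure D5:**
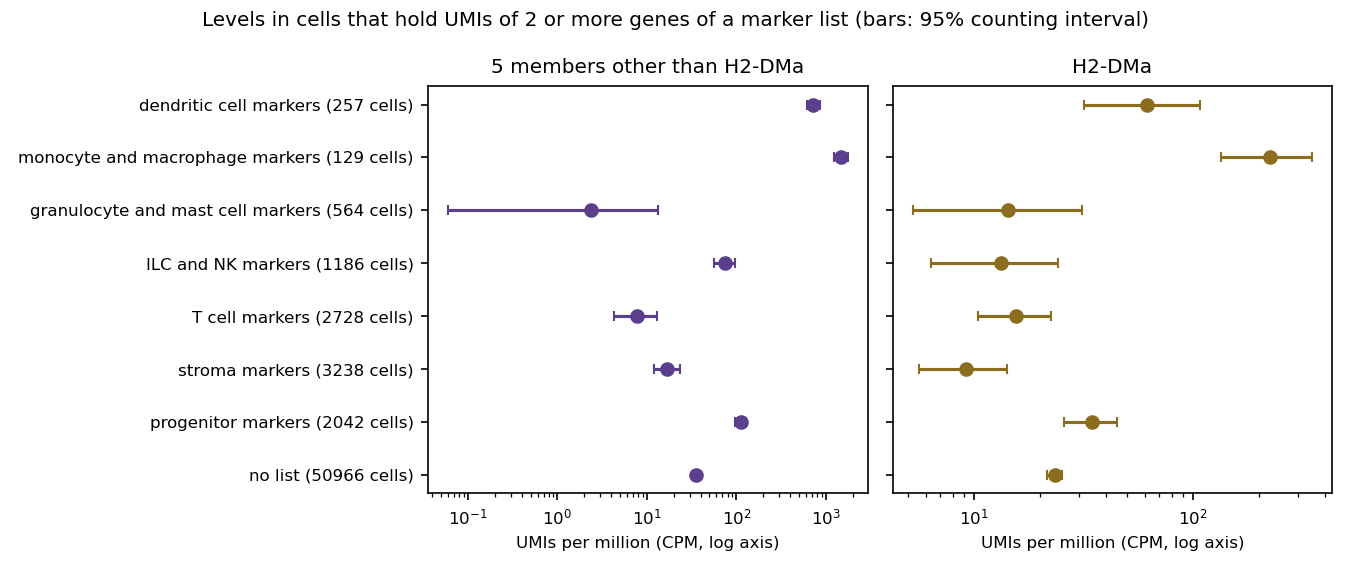
Level (CPM, log x axes that differ between panels) of the 5 genes other than H2-DMa, summed (left), and of H2-DMa (right) in cells with UMIs of 2 or more different genes of each marker list and in cells with no list, with exact Poisson 95% intervals as bars. The summed 5 genes span 2.38 to 1472 CPM and H2-DMa 9.15 to 224 CPM, pooled over libraries.

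These lists also differed between starts. The monocyte and macrophage list was at 127, 32.3 and 36.2 CPM in the WT DN1, DN2a and DN2b starts and at 98.5, 37.0 and 43.7 CPM in ΔTE, with Csf1r at 24.2, 1.22 and 0.366 CPM in WT and at 29.8, 2.53 and 0 CPM in ΔTE. From DN1 to DN2a, 6 of its 9 tested genes were over 2-fold higher and 1 lower in WT, and 4 of 7 higher and 1 lower in ΔTE, against 1.78% of all genes higher and 10.8% lower in WT and 2.1% and 7.35% in ΔTE. Csf1r, Adgre1 and Itgam in both genotypes and Ly6c2 in WT reached 20 UMIs only through the DN1 library where they are high, which favoured their calls, so these counts are a description only. Cx3cr1 ran the other way, at 7.84, 9.84 and 12.8 CPM in WT and at 6.27, 13.9 and 28.5 CPM in ΔTE. The dendritic list as a whole did not follow the starts (292, 324 and 341 CPM in WT and 298, 299 and 323 CPM in ΔTE). Cd24a made up most of it, and its genes were mixed: from DN1 to DN2a, 3 of 6 tested were over 2-fold higher and 1 lower in WT, and 5 of 8 higher and 0 lower in ΔTE, where Flt3 in WT and Zbtb46 in ΔTE likewise reached 20 UMIs only through DN1. Itgax was lower from start to start, at 21.9, 7.51 and 2.20 CPM in WT and 20.5, 7.75 and 4.08 CPM in ΔTE, and Ccr7 ran the other way, at 11.3, 24.1 and 32.9 CPM and 11.9, 17.4 and 21.5 CPM. When cells with the dendritic or the monocyte list were left out, the log2 ratio of DN1 to DN2a for the 6 genes together went from 1.59 to 1.37 in WT and from 1.62 to 1.34 in ΔTE. Without cells that had the stroma list it was 1.55 and 1.59. The part of these lists in the remaining difference was not tested.

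Finally, genes outside the 6 were ranked by how often they were found in the 255 cells. The ranking took genes with a UMI in at least 50 kept cells and in at least 10 of the 255 cells. These were 3104 genes, with a median ratio of observed to expected shared cells of 1.10. The 10 highest were Ifitm6, Batf3, Tbc1d9, Kynu, Zfp366, H2-DMb2, Ms4a4c, Pilra, Ctnnd2 and Ifi27l2a. The limit of 10 shared cells let rare genes in only at high ratios: Batf3, with 0.224 expected, entered exactly at it. The rank of rare genes was thus partly set by the limit, and the order is a description only. Ifitm6, an interferon-inducible transmembrane gene, was shared in 24 of its 59 cells (ratio 47.4, 30.4 to 70.5). Zfp366, which encodes the dendritic cell factor DC-SCRIPT, was shared in 31 of 88 (39.2, 26.6 to 55.6). Ms4a4c was shared in 44 of 137 (37.3, 27.1 to 50.1) and Ctnnd2, a catenin, in 62 of 247 (35.7, 27.4 to 45.8). The lowest of the 10, Ifi27l2a, had a ratio of 34.2 (20.6 to 53.4). These are genes found in the same cells, with no statement about shared control.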

How the data were processed

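The data are UMI counts per gene and cell barcode, deposited by the authors as 1 matrix for each of 6 libraries. They were made by sci-RNA-seq3 from cells that the study describes as fixed in paraformaldehyde. The submitters' processing notes name mm9; the aligner and the use of strand are not given in the sources used here. Gene positions were taken by Ensembl ID from GENCODE M21 on GRCm38 (27924 of 28048 IDs matched, 99.6%), and promoter windows from RefSeq (GRCm38.p6), with no coordinate taken from the matrices. Cells were kept by the limits described for the study, which left fewer cells here than the study states, for a reason not found, and kept cells held 21.4% to 62.2% of a library's UMIs. No doublet caller was run and no clusters were made. Counts were summed per library and reverse-transcription well and given as CPM, with exact Poisson intervals for counts, Clopper-Pearson intervals for shares and conditional binomial intervals for ratios (numpy 2.4.6, scipy 1.17.1, pandas 2.3.3, Python 3.11.15). edgeR 4.0.16 (R 4.3.3) gave TMM factors as an alternative. Expected shared cells were summed over 4 depth classes per library. Scripts were tested on simulated data. Named genes were the 6 members, genes of the fixed lists and the 10 outside genes with the highest co-detection among genes in at least 50 cells, 10 of them shared. Marker lists were used only to describe cells, and some listed genes are not reported here. The members and lists were chosen with earlier results of these data known. All count columns mapped to samples.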

Additional observations from a re-analysis of the deposited data

Results flagged for a closer look

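Class II transcripts were also counted in barcodes that the filters on cells had removed, and were above the limit that a count of 0 allows. In barcodes with under 200 genes the 6 genes were at 160 CPM, 60.2 CPM and 62.4 CPM in the WT DN1, DN2a and DN2b libraries and at 193 CPM, 67.2 CPM and 34.5 CPM in ΔTE, in each library above the kept cells. In barcodes with over 30% mitochondrial UMIs they were at 37.2 CPM in WT DN1, 15.5 CPM in WT DN2b, 42.4 CPM in ΔTE DN1, 19.8 CPM in ΔTE DN2a and 18.6 CPM in ΔTE DN2b. In barcodes with over 2000 UMIs they were at 35.0 CPM in ΔTE DN1 (9 UMIs), beside 31.5 CPM in WT DN1 (7 UMIs) and 38.0 CPM in WT DN2b (6 UMIs, all of H2-DMa). The highest level by either of the first 2 filters was in a DN1 start, and by the last in WT DN2b.

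Among quantities with at least 20 UMIs, the comparison of ΔTE with WT changed sign between starts for Ciita, H2-DMa and both sums of the genes. In each case the difference between starts was not tested, since each condition has 1 library. Ciita had a log2 ratio of -0.12 in the DN1 start and 0.95 in the DN2a start. H2-DMa had 0.34, 0.080 and -0.20 in the DN1, DN2a and DN2b starts. The 6 genes together had 0.40, 0.37 and -0.36. The 5 genes other than H2-DMa had 0.42, 0.67 and -0.91 (-2.73 to 0.62), the last on 5 UMIs in ΔTE and 15 in WT. The intervals of all these DN2b values and of Ciita in the DN1 start include 0. Leaving out 1 well can turn the sign for Ciita, H2-DMa and the 6 genes: the ratios then ran from -0.30 to 0.12 for Ciita in the DN1 start, from -0.35 to 0.31 for H2-DMa in the DN2b start and from -0.59 to 0.11 for the 6 genes in the DN2b start. For the 5 genes in the DN2b start the ratio stayed negative, from -1.66 to -0.27.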

How the results depend on the processing

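Without the limit on mitochondrial UMIs, the log2 ratio of the 6 genes was 0.12 for ΔTE to WT in the DN2a start and 1.19 for DN1 to DN2a in WT, the shares of cells with 2 or more of them were 0.610% in WT DN1 and 0.849% in ΔTE DN1, and the summed ratio of the 10 pairs was 65.8. With at least 300 genes per cell the ratios were 0.67 for ΔTE to WT in DN1 and 1.28 for DN1 to DN2a in WT. Thinning to 300 UMIs gave shares of 0.538%, 0.0542%, 0.722% and 0.158% in WT DN1, WT DN2a, ΔTE DN1 and ΔTE DN2a, and thinning to 500 gave 0.586% in WT DN1. The share of genes past the fold over the 7 comparisons together went from 8.01% to 5.31% with at least 50 UMIs, 13.8% with at least 5 and 16.8% at 1.5-fold. Alternatives chosen after seeing the data were the sum without H2-DMa and leaving out marker-list cells. Without H2-DMa the ratios of ΔTE to WT were 0.42, 0.67 and -0.91 in DN1, DN2a and DN2b. They were 2.34 and 2.09 for DN1 to DN2a and 1.43 and 3.02 for DN2a to DN2b in WT and ΔTE. Without dendritic-list and monocyte-list cells the DN1 to DN2a ratio was 1.37 in WT and 1.34 in ΔTE, and the 10 pairs gave 61.3. The cause of these shifts was not tested. No summed ratio, share or pair ratio changed direction under these alternatives.

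Leaving out each well in turn gave ranges for the 6 genes of 0.30 to 0.54, 0.26 to 0.43 and -0.59 to 0.11 for ΔTE to WT in DN1, DN2a and DN2b, of 1.45 to 1.70 and 1.57 to 1.73 for DN1 to DN2a in WT and ΔTE, and of 0.55 to 1.16 and 1.19 to 1.65 for DN2a to DN2b. Shares ranged from 0.668% to 0.990% in WT DN1, 0.106% to 0.153% in WT DN2a, 0% to 0.0293% in WT DN2b, 1.05% to 1.19% in ΔTE DN1 and 0.210% to 0.273% in ΔTE DN2a. The 10 pairs ranged from 54.0 to 60.0 and the 5 pairs with H2-DMa from 7.14 to 9.29. In WT DN2b 1 well held the only cell with 2 or more genes, and without it the ratio of DN2a to DN2b was 1.16 and that of ΔTE to WT 0.11.

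No test, paired or not, was run, since each condition has 1 library. Counts in the DN2b starts were too low to order genotypes. Single libraries cannot tell a culture from a genotype or a start.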
